A study of Vitis vinifera with 9 samples.

Results

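The 5 probe sets described here report transcripts of grape chitinases and of a chitinase-like protein, out of 16601 probe sets on the Affymetrix Vitis vinifera Genome Array. They were listed because the deposited annotation or the study's tables title them chitinase or chitinase-like, and because their signals on these same arrays showed different starting levels and courses. Their signals and changes are therefore given as a description, with no test. The study collected mature 30-day-old leaves of the cultivar 'Hongbaladuo', which were detached, stood with their petioles in water, kept in the dark at 25 °C and then exposed on the lower surface to UV-C at 6 W per square metre for 10 min. The control group was sampled at 0 h, before the UV-C treatment, and the other groups at 6 h and 12 h after its start. Each group held 3 replicates of 6 leaves, and each replicate was hybridized to 1 array, which makes 9 arrays. All groups shared the cultivar, the leaf age, the detachment and the dark incubation. No leaves without UV-C were sampled at 6 h or 12 h, so UV-C and the time since detachment cannot be told apart.

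Chitinases cut chitin, a polymer of N-acetylglucosamine that builds the walls of fungi and the cuticle of insects and that plants themselves lack. Class I and class IV enzymes belong to glycosyl hydrolase family 19 and typically carry a hevein-like chitin-binding domain, and class III enzymes belong to family 18. Many plant chitinases are pathogenesis-related proteins, and class IV chitinases and thaumatin-like proteins are also abundant proteins of ripe grape berries. Chitinase-like proteins of Arabidopsis share the fold of family 19 but are known for a role in cellulose formation in the cell wall.

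The only sequences of a chitinase transcript in the sources used here were the primers of the study's qRT-PCR for a second probe set annotated to CHI4D and VvChi4A, which is not among the 5. They are shown because they belong to the class IV transcripts with the largest change described below, and are printed 5′ to 3′ with no capitals.
class IV forward primer: attcgtattctgggttcggc
class IV reverse primer: gagaggcaccattgatttcttc
By the array annotation, 16 probes of the CHI4D probe set described here match the Chi4D mRNA, 16 match the VvChi4B mRNA and 15 the VvChi4A mRNA, all of class IV. All 16 probes of the second probe set match each of these 3 mRNAs. The signals of both probe sets, called CHI4D below, may therefore sum the transcripts of near-identical class IV genes, and these cannot be told apart here. Of the members with a RefSeq mRNA of their own, LOC100257850 was matched by 15 probes and LOC100266937 by 16.

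Signals are RMA intensities on a linear scale. A change is the difference between group means of log2 signals, and its error is the standard error of a limma fit of all 16436 probe sets that are not Affymetrix controls (n = 3 arrays per group). Array medians lay between 101 and 115, and arrays of the same group correlated at 0.988 to 0.996 across probe sets. Probe sets differ in brightness for the same amount of RNA, so their levels are not ranked against each other. The study names leaves as its material, and genes of leaf mesophyll were present on the control arrays. The summed signal of 6 probe sets titled as small subunits or activase of Rubisco or as chlorophyll a/b-binding proteins was 52390 to 60830 on the control arrays, 26440 to 30340 at 6 h and 6771 to 9836 at 12 h, with no single control signal under 3829. At 12 h the lowest single signal of these probe sets was 97.9, under the range of array medians. The part of these genes in the chitinase results was not tested. In whole leaves, a lower signal from fewer cells of a type and from less RNA per cell cannot be told apart.

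CHI4D (probe set 1613461_s_at), a class IV chitinase, went from under the range of array medians to far above it within 6 h. Its control signals were 63.4, 56.3 and 42.1 for replicates 1, 2 and 3. They were 13983, 15017 and 10126 at 6 h, and 18274, 17422 and 18873 at 12 h. No array of one group overlapped another group, and the 12 h arrays stayed within 1.08-fold of each other while those of the control and of 6 h spread over 1.51-fold and 1.48-fold. The signal was 242-fold higher at 6 h than in the control (log2 7.92 ± 0.18) and 342-fold higher at 12 h (log2 8.42 ± 0.18). Between 6 h and 12 h it was another 1.41-fold higher (log2 0.50 ± 0.18), or 1.25-fold (log2 0.33) without the third 6 h array. Both changes from the control use the same 3 control arrays.

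The second CHI4D probe set, for which the primers were designed, also stepped up at 6 h. It stood at 77.3, 65.7 and 60.4 in the control, 12570, 14247 and 8403 at 6 h, and 16070, 15719 and 22274 at 12 h. It rose 170-fold at 6 h and 264-fold at 12 h (adjusted p = 6.99e-09 and 2.95e-09 in limma with Benjamini-Hochberg adjustment). Over the 9 arrays its log2 signal correlated with that of the first at 0.999, which mostly reflects the step from control to treated arrays that both share. Its 12 h arrays exceeded its 6 h arrays by 0.63 ± 0.21 on the log2 scale, a difference under 2-fold (adjusted p = 0.0492 in limma, over all alternatives 0.0303 to 0.158). Without the third 6 h array it was 0.41 (adjusted p = 0.147).

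LOC100257850 (1606625_at) is titled a class IV chitinase by the study and a hypothetical protein in the deposited annotation. Its control signals were 376, 411 and 244. The 6 h signals were 1113, 1333 and 1348, and the 12 h signals 842, 779 and 1016. The 3 groups did not overlap, with the 6 h arrays the highest and the 12 h arrays in between. The signal was 3.76-fold higher at 6 h (log2 1.91 ± 0.20) and 2.61-fold higher at 12 h (log2 1.38 ± 0.20), and 1.44-fold lower at 12 h than at 6 h (log2 −0.53 ± 0.20). This gene thus had its highest signals at 6 h, whereas CHI4D had its highest at 12 h.

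The remaining class IV member (1607557_at) represents an expressed sequence tag (EST) of a hybrid Vitis cultivar and is called the hybrid EST here. The deposited annotation gives it neither a title nor a gene symbol, and its class is that of the study's title. Its signals in the control were 48.7, 60.5 and 49.6. They were 313, 444 and 145 at 6 h, with the third array well below the other two, and 1642, 1275 and 2276 at 12 h. All 3 groups were separate. The probe set was 5.18-fold higher at 6 h (log2 2.37 ± 0.36), 32.0-fold higher at 12 h (log2 5.0 ± 0.36) and 6.18-fold higher at 12 h than at 6 h (log2 2.63 ± 0.36). The step after 6 h was slightly larger than the step before it, but this order rests on the third 6 h array. Without that array the step up to 6 h was the larger, at 7.09-fold, and the step from 6 h to 12 h was 4.51-fold.

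LOC100246456 (1612050_at) is titled chitinase A by the study, the name of a family 18 enzyme in Arabidopsis. Its level depended on 1 array more than that of any other member. The control signals were 167, 166 and 31.3, with the third array more than 5-fold below the others. At 6 h the signals were 239, 189 and 174, followed by 106, 115 and 72.1 at 12 h. The 6 h arrays lay above all control arrays, and the 12 h arrays lay within the control range and below all 6 h arrays. With all arrays the signal was 2.08-fold higher at 6 h than in the control (log2 1.06 ± 0.55), 1.00-fold the control at 12 h (log2 0.00 ± 0.55), and 2.08-fold lower at 12 h than at 6 h (log2 −1.06 ± 0.55). Without the third control array the 6 h value was 1.19-fold the control, and the 12 h value was 1.74-fold below it (log2 −0.80). The error of 0.55 draws on all 3 groups, whose log2 SDs were 1.39 in the control, 0.24 at 6 h and 0.36 at 12 h.

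A second probe set annotated to LOC100246456 also had its lowest control signal on the third array. The signals were 175, 148 and 46.6 in the control, 230, 119 and 107 at 6 h, and 63.5, 60.8 and 61.4 at 12 h. Its change was 0.42 ± 0.46 at 6 h and −0.79 ± 0.46 at 12 h against the control, and −1.21 ± 0.46 at 12 h against 6 h, all on the log2 scale. It passed the test in no comparison (adjusted p = 0.49, 0.173 and 0.0793 in limma). Without the third control array the change at 6 h turned to −0.17 (adjusted p = 0.665 in limma, over all alternatives 0.201 to 0.935). In the same fit the change at 12 h against the control was −1.38 (adjusted p = 0.00263 in limma), which is a call, and at 12 h against 6 h the adjusted p was 0.00764. Over all alternatives the adjusted p ran from 0.0018 to 0.469 at 12 h against the control and from 0.00636 to 0.244 at 12 h against 6 h. The 2 probe sets of this gene correlated at 0.847 over the 9 arrays, less than the pair of CHI4D.

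LOC100266937 (1621583_at) is titled chitinase-like protein 2 by the study and was the only member that decreased. By the array annotation its sequence resembles a putative basic chitinase of Arabidopsis. Its control signals were 4638, 4675 and 5944. The 6 h signals were 1784, 1555 and 1897, and the 12 h signals 1019, 1263 and 1225. The groups did not overlap and stepped down from control to 6 h to 12 h, and the spread within a group stayed between 1.22-fold and 1.28-fold. The signal was 2.90-fold lower at 6 h (log2 −1.54 ± 0.14), 4.34-fold lower at 12 h (log2 −2.12 ± 0.14), and 1.49-fold lower at 12 h than at 6 h (log2 −0.58 ± 0.14). On the third control array, where LOC100246456 and LOC100257850 were lowest, this probe set was highest.

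Across the array, 26.6% of probe sets were called at 6 h against the control, 32.2% at 12 h against the control and 6.88% at 12 h against 6 h (adjusted p under 0.05 in limma with a change of at least 2-fold). By the same rule, 3 members were higher and 1 was lower at 6 h, and 3 were higher and 1 lower at 12 h, while LOC100246456 passed at neither time. At 12 h against 6 h only the hybrid EST passed, as higher, beside 2.34% of all probe sets called higher and 4.54% called lower. The members were chosen from these contrasts, so nothing is read from their counts or from their median change. Their median log2 change was 1.91 at 6 h and 1.38 at 12 h, beside −0.03 and 0.05 over all probe sets tested.

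Within class IV, the members ranged from 3.76-fold to 242-fold at 6 h and from 2.61-fold to 342-fold at 12 h. The size and timing of these changes differed between members that carry the same class name. The members were listed for such differences, so this is a description only. In the gene order of the RefSeq table of assembly ASM3070453v1, where 13 of the 18 chitinase gene IDs were found, 4 class IV genes followed each other closely on one chromosome. LOC100256098, whose sequence resembles an Arabidopsis class IV chitinase, was followed after 5 genes by LOC100257850, after 3 more by CHI4D and after 1 more by CHI4C. None of the genes between them is named by a probe set. At 6 h these neighbours were 13.9-fold, 3.76-fold, 242-fold and 107-fold higher than the control, in that order, and at 12 h 11.8-fold, 2.61-fold, 342-fold and 68.2-fold. LOC100257850 had the smallest change of the 4 although it lies between the others. The chitinase-like LOC100266937 was on the same chromosome but with 215 genes between it and LOC100256098.

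**Figure D1:**
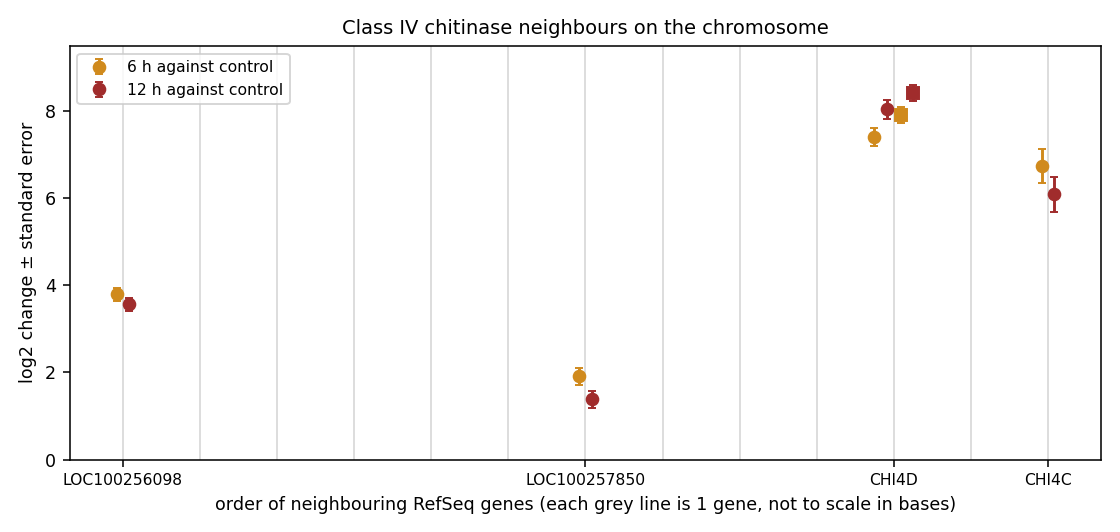
Log2 change with its standard error (y axis) at 6 h and 12 h against the control for 4 neighbouring class IV genes in their order on the chromosome (x axis, each grey line 1 gene, distances not to scale); for CHI4D, circles are the second probe set and squares the one described first. LOC100257850, between LOC100256098 and CHI4D, is lowest, at 1.91 and 1.38.

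Of the other probe sets, 8 carried the word chitinase in their deposited title. They include the second CHI4D probe set, and some of them share a gene (LOC100232985 or CHIT3), so they do not stand for 8 separate genes. At 6 h 7 of them were called higher, 0 lower, and 1 did not pass, beside 11.9% of all probe sets called higher. At 12 h all 8 were higher, beside 14.7%. At 12 h against 6 h none of the 8 passed. Their median log2 change was 3.43 at 6 h, 3.98 at 12 h and 0.43 at 12 h against 6 h. CHI4C, another class IV chitinase, rose 107-fold at 6 h and 68.2-fold at 12 h (adjusted p = 4.97e-07 and 6.4e-07 in limma). The difference between its 12 h and 6 h arrays was −0.65 ± 0.40 (adjusted p = 0.27 in limma, over all alternatives 0.022 to 0.465), where that of CHI4D was 0.50 ± 0.18. All 12 h arrays of CHI4C lay below its 6 h arrays, a difference under 2-fold. The error of 0.40 draws on all 3 groups, whose log2 SDs were 0.99 in the control, 0.34 at 6 h and 0.08 at 12 h.

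Probe sets titled as other classes changed by smaller folds than CHI4D, a difference that was not tested. Acidic chitinase CHIT3 rose 25.9-fold at 6 h and 35.3-fold at 12 h (adjusted p = 9.03e-06 and 3.44e-06 in limma), and a probe set that covers CHIT3, LOC100256931 and LOC100263797 rose 43.9-fold and 55.2-fold. The class I chitinase LOC100232985 had 2 probe sets, which rose 4.50-fold and 3.50-fold at 6 h and 7.05-fold and 4.67-fold at 12 h. A class III chitinase probe set of LOC100232989, LOC100251711 and LOC100267119 rose 3.33-fold and 3.13-fold (adjusted p = 0.00273 and 0.00332 in limma). CHI1B, an extracellular class I chitinase, changed 2.15-fold at 6 h (log2 1.11 ± 0.55, adjusted p = 0.123 in limma) and rose 3.66-fold at 12 h (adjusted p = 0.0143). Its control signals were 255, 176 and 69.7 and its 6 h signals 401, 547 and 142, so in both groups the third array was the lowest. Without the third 6 h array its 6 h change was 1.68 on the log2 scale and passed (adjusted p = 0.0168, over all alternatives 0.00961 to 0.392), and without the third 12 h array the call at 12 h was lost (adjusted p = 0.0543, over all alternatives 0.00229 to 0.0543).

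**Figure D2:**
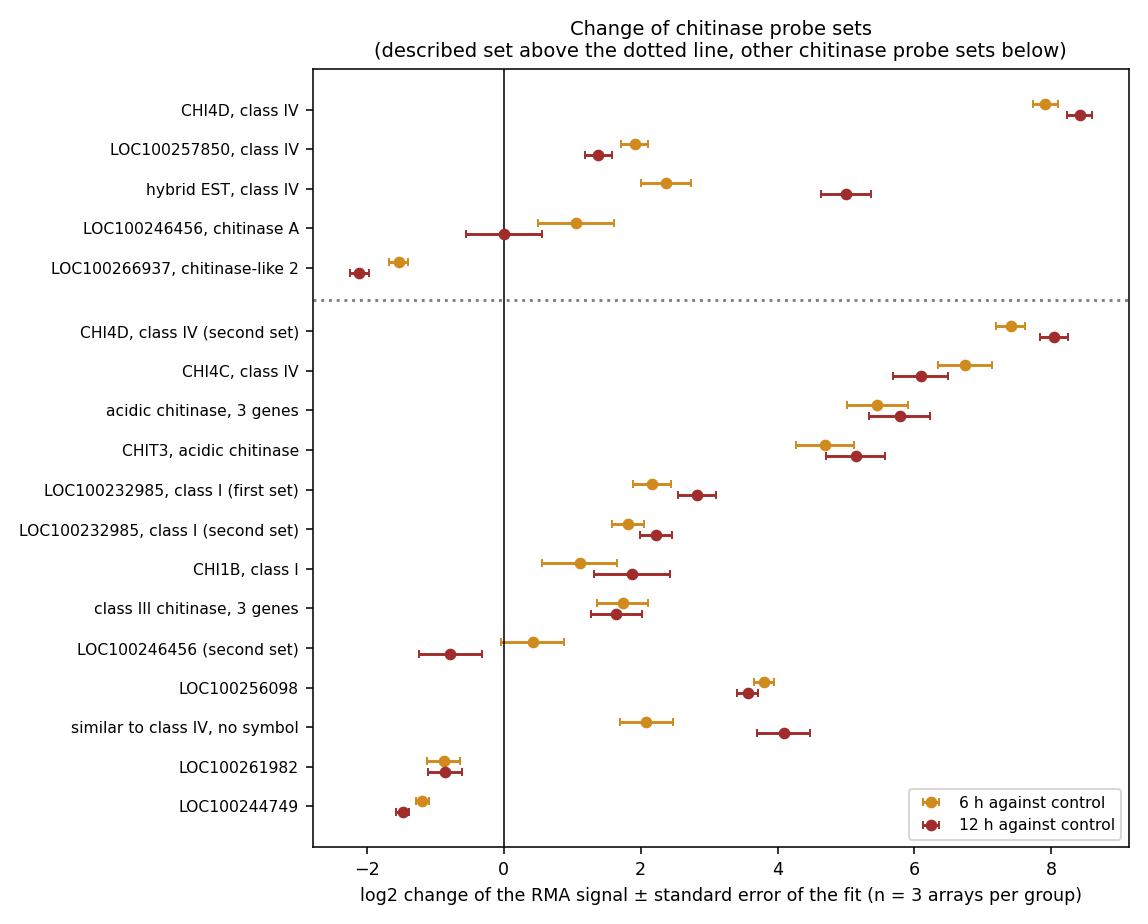
Log2 change of the RMA signal with its standard error (x axis) at 6 h and 12 h against the control for the 5 described probe sets (above the dotted line) and 13 other chitinase probe sets of the deposited annotation (below it), on the y axis. CHI4D has the largest changes, at 7.92 and 8.42, and LOC100266937 lies furthest below 0, at −1.54 and −2.12.

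Further probe sets without a chitinase title resemble a chitinase in the array's target description. Adding these made a list of 12, of which 9 were called higher and 1 lower at 6 h, and 10 higher and 1 lower at 12 h. LOC100261982 has the same best Arabidopsis match as the chitinase-like LOC100266937. Its change was −0.88 ± 0.24 at 6 h and −0.86 ± 0.24 at 12 h (adjusted p = 0.0119 at both times in limma), under the 2-fold threshold. Without any 1 of the first and second control arrays and the first 6 h array its 6 h change was −1.01, −1.02 and −1.08 and passed, and without the second control array it also passed at 12 h. LOC100244749, with a weak similarity to a putative Arabidopsis chitinase, fell by 1.20 and 1.48 on the log2 scale (adjusted p = 3.34e-06 and 5.27e-07 in limma).

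Like the hybrid EST, another probe set without a gene symbol was higher again at 12 h than at 6 h. Its description names an Arabidopsis class IV chitinase, and it rose 4.24-fold at 6 h and 17-fold at 12 h (adjusted p = 0.00107 and 7.89e-06 in limma), with a 4.01-fold step up from 6 h to 12 h (adjusted p = 0.00398). Its 6 h signals were 3503, 5925 and 1604, in the same order of replicates as those of the hybrid EST. Other chitinase probe sets shared this order at 6 h, CHI4D and CHI1B among them. Of 3 more probe sets that only the study titles as chitinases, and that it chose on these samples, 1 without a symbol was 38.1-fold higher at 6 h and 102-fold at 12 h. Another, of the suffix _x_at and annotated to LOC100263797 alone, was 55.8-fold and 78.1-fold higher. Without the third control array its values were 36.2-fold and 50.8-fold. For LOC100264637 the values with all arrays were 7.26-fold and 2.95-fold.

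Within a group, the lowest signals of these genes fell mostly on 1 array. Of 21 chitinase probe sets, members included, 15 had their lowest control signal on the third array, where 36.1% of all probe sets were. At 6 h 16 of 21 were lowest on the third array, against 31.2% of all probe sets, and at 12 h 13 of 21 on the second array, against 31.2%. The deviation of an array was taken from the mean of the other arrays of its group, on the log2 scale. Its median over the 21 was −0.42 on the third control array and −0.61 on the third 6 h array. Over all probe sets the median was −0.01 and 0.01. Several of the 21 share a gene or similar sequences. Among the members, CHI4D was lowest on the third array of both groups, and LOC100266937 was highest on it in both. Without the third array of both groups the change was 242-fold at 6 h for CHI4D, 6.88-fold for the hybrid EST, 3.10-fold for LOC100257850 and 1.28-fold for LOC100246456. The part of leaf material, handling or hybridization in this was not tested.

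**Figure D3:**
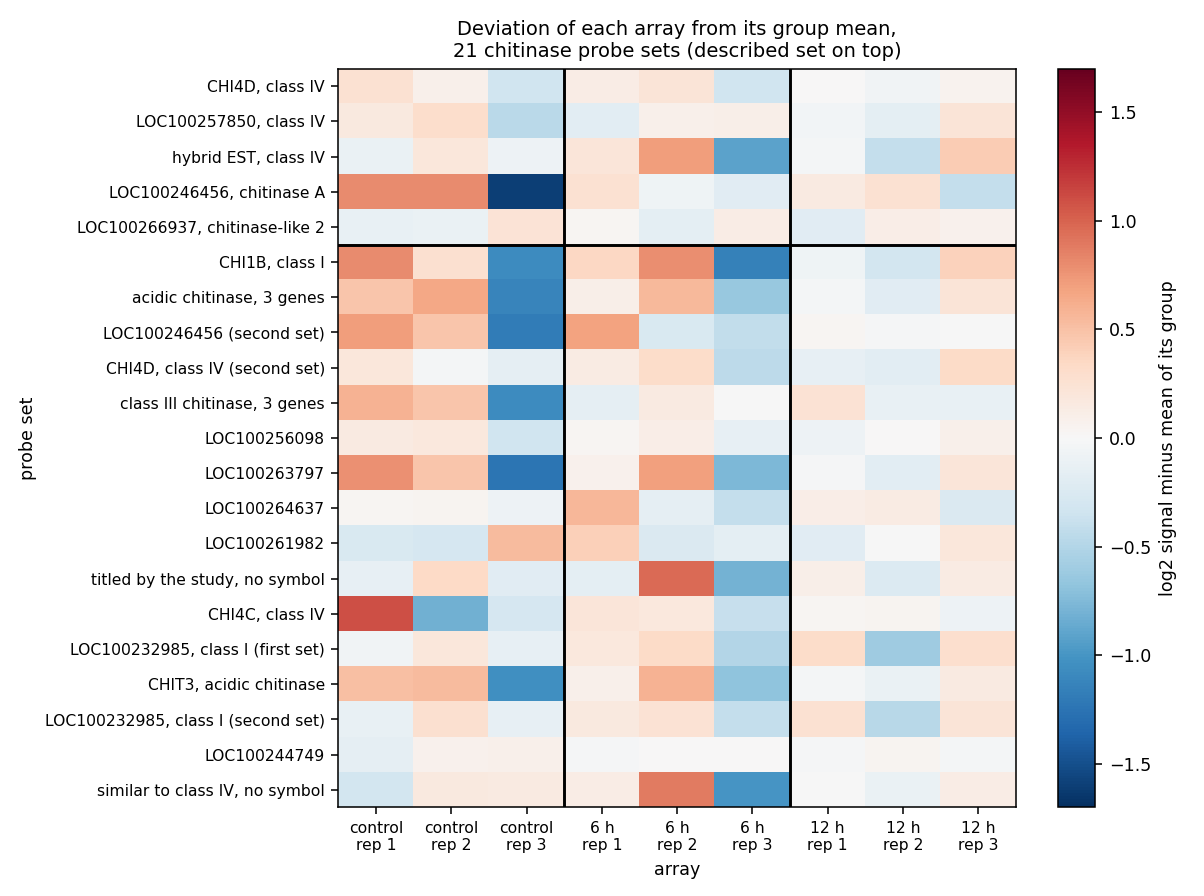
Log2 signal minus the mean of its group (colour, blue below and red above the group mean) for 21 chitinase probe sets (y axis, the 5 described on top) on each of the 9 arrays (x axis). The blue columns are the third control array, lowest for 15 of 21 probe sets, and the third 6 h array, lowest for 16 of 21.

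For the lists that follow, 11.9% of all probe sets were called higher and 14.7% lower at 6 h, and 14.7% and 17.5% at 12 h. Beta-1,3-glucanases cut the glucan of fungal walls and the callose of plants. Of 4 probe sets titled so, 3 rose and 1 fell at each time, with a median log2 change of 5.55 and 6.54. The class I beta-1,3-glucanase LOC100232986 rose 68.0-fold at 6 h and 114-fold at 12 h (adjusted p = 1.41e-07 and 4.25e-08 in limma). A probe set of LOC100260160 and LOC100265368 rose 55.4-fold and 273-fold with a 4.93-fold step up from 6 h to 12 h (adjusted p = 0.002 in limma), while LOC100257740 fell by 3.24 and 2.63 on the log2 scale. With target descriptions the list grew to 12, with 5 higher and 6 lower at 6 h, and 4 higher and 6 lower at 12 h. LOC100261876 and LOC100254667 in it fell by 4.56 and 3.98 at 12 h on the log2 scale.

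Thaumatin-like proteins and osmotins are further pathogenesis-related proteins. Of 2 titled probe sets, that of TL3 rose 37.7-fold and 58.1-fold, and 1 did not pass. With target descriptions 15 were found, with 6 higher and 2 lower at 6 h and 5 higher and 2 lower at 12 h, where the lower calls are a share like that of all probe sets. LOC100263272, similar to an Arabidopsis osmotin, rose 74.2-fold and 108-fold, and LOC100247111 and LOC100247919 fell by 5.54 and 1.30 at 12 h on the log2 scale. Of 7 probe sets titled pathogenesis-related, the 6 h comparison called 2 higher and 2 lower, and that at 12 h called 2 higher and 1 lower, counts too small to be set against the shares of all probe sets. Without the third 6 h array all 7 passed at 6 h, 4 of them higher. PR10.3 rose 15.1-fold and 20.2-fold and LOC100249884 7.81-fold and 8.67-fold, whereas PR10.7 fell by 3.06 and 3.0 on the log2 scale. With target descriptions this list held 12, with 4 higher and 5 lower at 6 h and 4 higher and 4 lower at 12 h. A PR-1 probe set of LOC100242852 rose 3.79-fold and 40.6-fold with a 10.7-fold step up from 6 h to 12 h (adjusted p = 5.84e-05 in limma), and another PR-1 probe set, without a symbol, rose 3.59-fold and 39.4-fold. LOC100256515 and LOC100261232 of this list fell by 5.46 and 5.11 at 12 h. The 1 probe set described as hevein-like, LOC100255405, rose 19.1-fold at 6 h and 42.8-fold at 12 h (adjusted p = 3.93e-05 and 5.23e-06 in limma). Hevein is a chitin-binding protein. The words for chitin receptors, for family 18 and 19 hydrolases and for xylem found 0 probe sets.

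Because chitinase-like proteins are known for a role in cellulose formation, a cellulose list was set beside LOC100266937. It was drawn by the words cellulose synthase, cobra, korrigan, fasciclin-like and a term for endoglucanases in the target description. Of 12 such probe sets, the 6 h comparison called 1 higher and 7 lower, and that at 12 h called 1 higher and 8 lower, beside 14.7% and 17.5% of all probe sets called lower. Their median log2 change was −1.10 at 6 h and −1.77 at 12 h, where LOC100266937 changed by −1.54 and −2.12. LOC100264115 fell by 2.58 and 3.31 on the log2 scale (adjusted p = 2.74e-08 and 4.2e-09 in limma). LOC100242715 changed by −0.98 at 6 h (adjusted p = 0.00531 in limma, under 2-fold) and fell by 2.30 at 12 h (adjusted p = 1.45e-05), whereas LOC100250126 rose 8.10-fold and 11.2-fold.

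The probe sets most like each member were sought among 9163 others with a gene title, by Pearson's correlation of log2 signals over the 9 arrays. These arrays fall into 3 groups, so a high value mostly says that the steps between groups are alike. For CHI4D the closest were the osmotin-like LOC100263272, a stilbene synthase probe set of several genes, which rose 465-fold and 646-fold, and LOC100251668, each at 0.999. Stilbene synthase makes resveratrol. For LOC100266937 they were LOC100252982 at 0.997, the pectinesterase-like LOC100252389 at 0.996 and LOC100254408, similar to the cellulose synthase subunit RSW1 of Arabidopsis, also at 0.996. LOC100254408 was 0.439-fold the control at 6 h and 0.331-fold at 12 h.

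For the hybrid EST the closest were LOC100259987, similar to a 14-3-3 protein, at 0.993, the cytochrome b5-like LOC100250986 at 0.991 and the syntaxin-like LOC100265088 at 0.991. Their changes at 12 h were 2.06-fold, 2.76-fold and 3.41-fold, far below the 32.0-fold of the hybrid EST. For LOC100257850 they were LOC100266970 at 0.991, a probe set of LOC100242774, LOC100248732 and LOC100253829 at 0.991 and the NAM-like LOC100259233 at 0.990. All 3 were higher at 6 h than at 12 h, as LOC100257850 was, with the probe set of 3 genes at 14.7-fold and 7.72-fold the control. For LOC100246456 the highest value was only 0.950, for the SNF8-like LOC100262383, followed by LOC100248981 at 0.927 and LOC100267696 at 0.915. Each of these 3 was also lowest of its control group on the third array, which the choice by correlation over the same arrays favours. LOC100262383 stood at 1.06-fold and 1.02-fold the control. Between members, CHI4D correlated with LOC100266937 at −0.97, with LOC100257850 at 0.919, with the hybrid EST at 0.864 and with LOC100246456 at 0.296.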

How the data were processed

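The authors hybridized RNA from 9 leaf samples to 1 Affymetrix array each, and background correction, quantile normalization and summary by RMA are their steps, as named in the methods and in the submitters' processing notes, which give no version. The deposited values are 1 RMA intensity per probe set and array, on a linear scale from 3.80 to 30874. The authors also deposited a SAM table for each comparison, with the same intensities, a SAM score, a q-value as a percent and a fold ratio. From these tables the annotation was used, and the score, q-value and ratio were not. Of the other columns of per-sample values, 0 were left out. Scanner files were not used here. The precision is limited by the number of arrays, 3 per group, and p-values measure the spread between replicates of 6 leaves.

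The log2 of each intensity was taken, and 165 Affymetrix control probe sets were left out. One limma model (version 3.58.1, R 4.3.3, with lmFit and then eBayes) held the 3 groups (6 residual and 3.42 prior degrees of freedom), in place of SAM. P-values were adjusted by Benjamini-Hochberg over 16436 probe sets, and a call needed an adjusted p under 0.05 and a change of at least 2-fold. The fit was tested on simulated data. Tables and figures were made with Python 3.11.15, pandas 2.3.3, numpy 2.4.6 and matplotlib 3.10.9.

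The 5 members, the lists and the tests were chosen with earlier results of these data known. The probe sets named are the members, all others titled chitinase, those sharing a member's gene symbol, in each list up to 2 probe sets that rose and 2 that fell with the largest change at 12 h among calls whose arrays do not overlap the control, and the 3 titled probe sets most correlated with each member. Lists were drawn by words in gene titles. As 8374 of 9175 titles read only hypothetical, the words were also searched in target descriptions, a step chosen after seeing the data, as were the probe sets titled chitinase only in descriptions or by the study. The cellulose list comes from descriptions alone. Gene symbols were matched to the RefSeq table for names and order only.

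The alternatives were no fold threshold, unadjusted p, only the 2 groups of a comparison in the fit, removal of the dimmest probe sets (a share of 0.25), robust estimation with a mean-variance trend, centring on array medians or on 18 hybridization controls, further quantile normalization, linear means, a constant of 16 added before log2, no probe sets of the suffixes _s_at, _x_at and _a_at, a fit with a replicate block, leave-one-out fits over the arrays, and a fit without the third array of both the control and the 6 h group, chosen after seeing the data.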

Additional observations from a re-analysis of the deposited data

How the results depend on the processing

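Directions turned only for changes that had not passed the test or had none. The 6 h change of the second LOC100246456 probe set turned from 0.42 to −0.17 without the third control array, in a range of −0.17 to 0.78 over single arrays left out. The change of LOC100261982 at 12 h against 6 h, 0.02 with all arrays, ranged from −0.10 to 0.22 over single arrays left out (below 0 without the second 6 h, the third 6 h or the third 12 h array), and was −0.06 without the third array of both the control and the 6 h group. The 12 h change of LOC100246456, 0.00 with all arrays, lay between −0.80 without the third control array and 0.41 without the first. The members' changes stayed within the spread of their replicates, except with 16 added before log2, which gave 7.54 and 8.04 for CHI4D at 6 h and 12 h and 4.63 for the hybrid EST at 12 h. Without a fold threshold 8686 probe sets passed at 6 h, 9673 at 12 h and 4719 at 12 h against 6 h. At 12 h against 6 h this setting also gave 1 of the chitinase-titled, 2 of the glucanase-titled and 5 of the cellulose list. At 12 h against the control it gave 2 of the thaumatin-titled. Without the suffixes _s_at, _x_at and _a_at only 5 chitinase-titled probe sets were tested, of which 4 passed at 6 h and 5 at 12 h. Searching descriptions too lengthened the lists and gave, at 6 h, 12 h and 12 h against 6 h, 11, 10 and 3 called glucanases, 8, 7 and 3 of the thaumatin family and 9, 8 and 4 pathogenesis-related probe sets. Leaving out each array in turn gave 1 to 2 glucanases at 12 h against 6 h (2 without the second 6 h or the second 12 h array). For the cellulose list these fits gave 1 to 2 at 12 h against 6 h (2 without the first or the second 6 h array). They gave 3 to 7 pathogenesis-related probe sets at 6 h. Without the third array of both the control and the 6 h group the latter were 7 at 6 h and 2 at 12 h against 6 h.

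Centring on array medians moved the median over all probe sets by 0.13 (log2) at 6 h and 0.14 at 12 h, and centring on hybridization controls by −0.16 and −0.14. The share of calls that were higher was 44.8% at 6 h and 45.5% at 12 h, 52.0% and 51.7% after centring on medians, and 36.6% and 39.2% on hybridization controls. Neither changed the direction of a member, except that centring on hybridization controls turned the 12 h change of LOC100246456. That change was 0.002 in the main fit, 0.14 after centring on medians and −0.14 on hybridization controls. Whether equal replicate numbers mark paired samples is not known. Over all probe sets, the deviations of same-numbered arrays from their group means correlated at −0.16 to 0.14, and only 1 of 9 pairs exceeded 0.1. With so few arrays behind each mean, these values cannot exclude a pairing. With the replicate block 4358, 5285 and 1118 probe sets were called at 6 h, 12 h and 12 h against 6 h, and of the single probe sets only the call of the second LOC100246456 probe set at 12 h against 6 h changed (adjusted p = 0.0427 in limma, over all alternatives 0.00636 to 0.244). That probe set also passed with only the 2 groups in the fit (adjusted p = 0.0114). The number of arrays limits the precision, and the 2.08-fold change of LOC100246456 at 6 h against the control stood beside a control SD of 1.39 on the log2 scale. Its 2.08-fold lower signal at 12 h than at 6 h is a difference without control arrays, although its error draws on them. The SDs at 6 h and 12 h were 0.24 and 0.36.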
